A study of Schizosaccharomyces pombe with 24 samples.

Results

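The subtelomeric gene clusters of chromosome I of fission yeast (Schizosaccharomyces pombe) were followed through wild-type cells and 7 mutants of the pre-mRNA 3' end processing machinery. The members are all genes of the count table whose systematic names start with SPAC212., SPAC977., SPAC186., SPAC750. or SPAC869., which gave 58 genes of 6988. In the gene order of the RefSeq annotation (assembly ASM294v3), 30 of them lie at the left end of the chromosome (12 SPAC212. and 18 SPAC977. genes) and 28 at the right end (11 SPAC869., 9 SPAC186. and 8 SPAC750. genes). The rule itself reads names and no measured values, although these clusters were taken up with earlier results of these data known.

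Subtelomeres of fission yeast are packaged as heterochromatin, in which the methyltransferase Clr4 marks histones and HP1-type proteins such as Swi6 bind the mark. Silencing there starts from the telomere-binding protein Taz1 and from repeats within the tlh helicase genes, and genes close to telomeres are known for expression that varies from cell to cell. The clusters hold many small families found at several chromosome ends, with transporters, cell-surface glycoproteins and enzymes of carbon and nitrogen metabolism among them.

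Libraries of polyA+ RNA came from log-phase haploid cells grown at 30 °C in YES, a rich yeast extract medium, with 3 biological replicates in each of 8 groups. The control is an h- wild type (WT). The mutants ysh1-L74F, pta1-T524M, pfs2-V180F, pfs2-E104A and msi2-G252E are h- and also carry asp1-WT::kanMX, that is, a drug-resistance marker beside an intact asp1 gene. The strain pla1-Y86L::kanMX is h- with its own marker, and cft1-L249Q is h+, so mating type and that mutation cannot be told apart, nor can a marker and the mutation it accompanies. The mutated genes encode subunits of the complex that cleaves nascent transcripts and adds the poly(A) tail, Pla1 being the poly(A) polymerase and Ysh1 the endonuclease. All 7 comparisons with the control use the same 3 WT libraries, so they are not independent of each other. Nothing in the labels says whether the replicates of a group came from separate isolates of the strain, so p-values measure the spread between these cultures.

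At the right end, a run of neighbouring genes from SPAC750.06c inward to SPAC186.04c tended to stand low in the same libraries, most of all in the 3 pfs2-V180F libraries, where gdt1 and the aldo/keto reductase gene SPAC750.01 fell with log2 fold changes of -3.00 ± 0.64 and -4.17 ± 0.63. In ysh1-L74F the outer genes SPAC750.06c, ftm4 and SPAC750.01 stood about as low, while gdt1 was not called. SPAC750.01 had 40, 32 and 36 reads there, beside 43, 35 and 30 in pfs2-V180F. Genes of the run differed between WT replicates far more than most genes did. At the left end, where most well-expressed genes were even between replicates, the aldo-keto reductase gene SPAC977.14c rose in pta1-T524M with a log2 fold change of 1.50 ± 0.06. The dihydroxyacetone kinase gene dak2 fell in pla1-Y86L with one of -2.06 ± 0.10, and reads of the terminal helicase gene tlh1 came mostly from msi2-G252E and cft1-L249Q, which held 142 and 73 of its 251 reads.

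Libraries held 19.4 to 29.3 M counts, and the members took between 0.151 and 0.188% of them in most groups, 0.219 to 0.243% in cft1-L249Q and 0.302 to 0.332% in pta1-T524M. A large share of it is 1 gene, SPAC977.14c, with 57464 reads over the WT libraries. Of the 58 members, 35 passed the filter on low counts, 17 on the left and 18 on the right, beside 6287 genes in all. A gene that passed through the group where it is high had to differ, so counts over these 35 describe the tested members and are no evidence about the whole set. For 3 members no read was counted in any library: ayr2, SPAC750.08c and SPAC750.02c. Every 50-base stretch of their exons recurs in the genome, so the lack of counted reads need not mean a lack of RNA. Another 4 had 1 to 9 reads over the 24 libraries, namely SPAC212.10, SPAC977.03, SPAC750.07c and ftm3. The other 16 untested members had between 12 and 154 reads. Among them, SPAC212.03, of unknown function, had 11, 6 and 9 reads in the msi2-G252E libraries and 1, 0 and 1 in WT. SPAC977.05c, of unknown function, had 4, 12 and 7 reads in WT and 0, 0 and 1 in pla1-Y86L.

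Much of this sequence is not unique. In 33 members more than 10% of the 50-base stretches recur elsewhere in the genome (ASM294v3), and such reads could be split between copies or left uncounted. The share was 100% in SPAC212.12, 99.1% in tlh1, 92.4% in ftm4, 82.6% in SPAC977.18 and 78.6% in SPAC212.06c. It was 75.5% in ftm2, 74.1% in fex1 and 73.3% in SPAC977.12, so changes given below for these genes may not belong to 1 locus. The other 25 members have no repeated stretch of that length, and these include gdt1, SPAC186.04c, SPAC186.06, SPAC186.08c, pdc102, pfl9, dak2, nhe1 and every SPAC869. gene. SPAC750.01 and SPAC977.14c lie between, with 32.8 and 29.1%. Per kilobase of annotated exon, SPAC977.14c was the most highly expressed member in WT, at 617 counts per kilobase per M reads. By the same measure yhb1 (a nitric oxide dioxygenase) stood at 85.7, the L-asparaginase gene SPAC977.12 at 79.4, nhe1 (a sodium/proton antiporter) at 65.6 and cat1 (an arginine and lysine transporter) at 57.2.

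Replicates of the tested members were uneven. Over the 3 WT libraries, the median SD of log2 CPM (counts per M reads, scaled by TMM) was 0.464 for the 35 tested members and 0.0623 over all 6287 genes tested. The unevenness was not the same in every block: the median SD was 0.0769 for SPAC977. genes, 0.300 for SPAC869., 0.557 for SPAC212., 0.795 for SPAC186. and 1.59 for SPAC750. Low read numbers widen such SDs, so the range was also counted among genes with a mean of at least 20 reads. In WT, 8 of 23 such members (34.8%) ranged over more than 2-fold between replicates, and 0.784% of 5998 genes in all did: ftm1, SPAC977.18, ftm4, SPAC750.01, pdc102, SPAC186.08c, SPAC186.06 and gdt1. In the mutants this count was 0 of 23 members in pfs2-E104A, 1 of 23 in msi2-G252E, 1 of 16 in pfs2-V180F, 3 of 26 in pta1-T524M, 3 of 21 in ysh1-L74F, 3 of 23 in pla1-Y86L and 6 of 23 in cft1-L249Q. The floor of 20 reads does not match members and other genes for depth. Over the WT libraries ftm1, pdc102, SPAC186.08c and SPAC977.18 held 73, 87, 113 and 147 reads, whereas SPAC750.01 and gdt1 held 2002 and 4288.

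**Figure D1:**
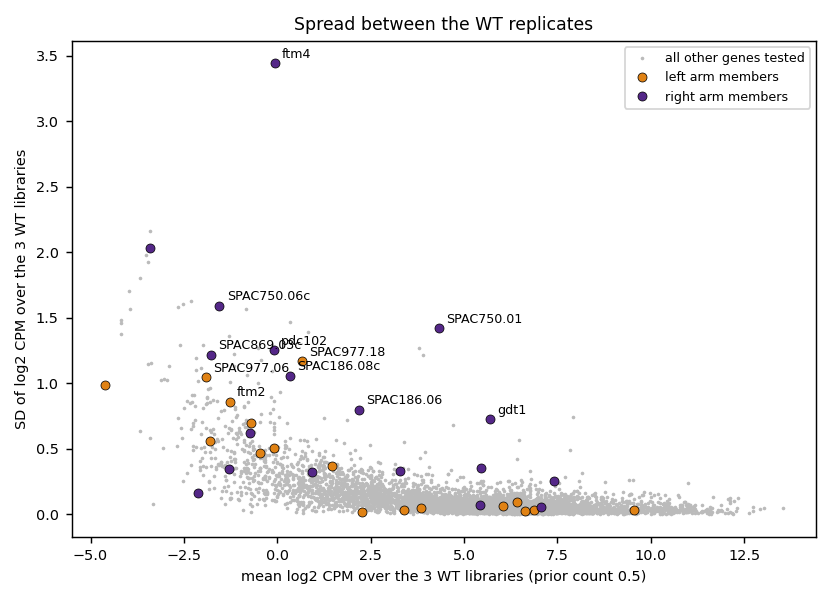
Spread between the 3 WT replicates (y axis, SD of log2 CPM) against mean level (x axis, mean log2 CPM with a prior count of 0.5) for each of the 6287 genes tested, with left and right arm members as large points. Right arm members such as gdt1, SPAC186.06 and SPAC750.01 lie above the grey cloud at their level, while many left arm members lie within it; the median SD was 0.464 for tested members and 0.0623 for all genes.

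**Figure D2:**
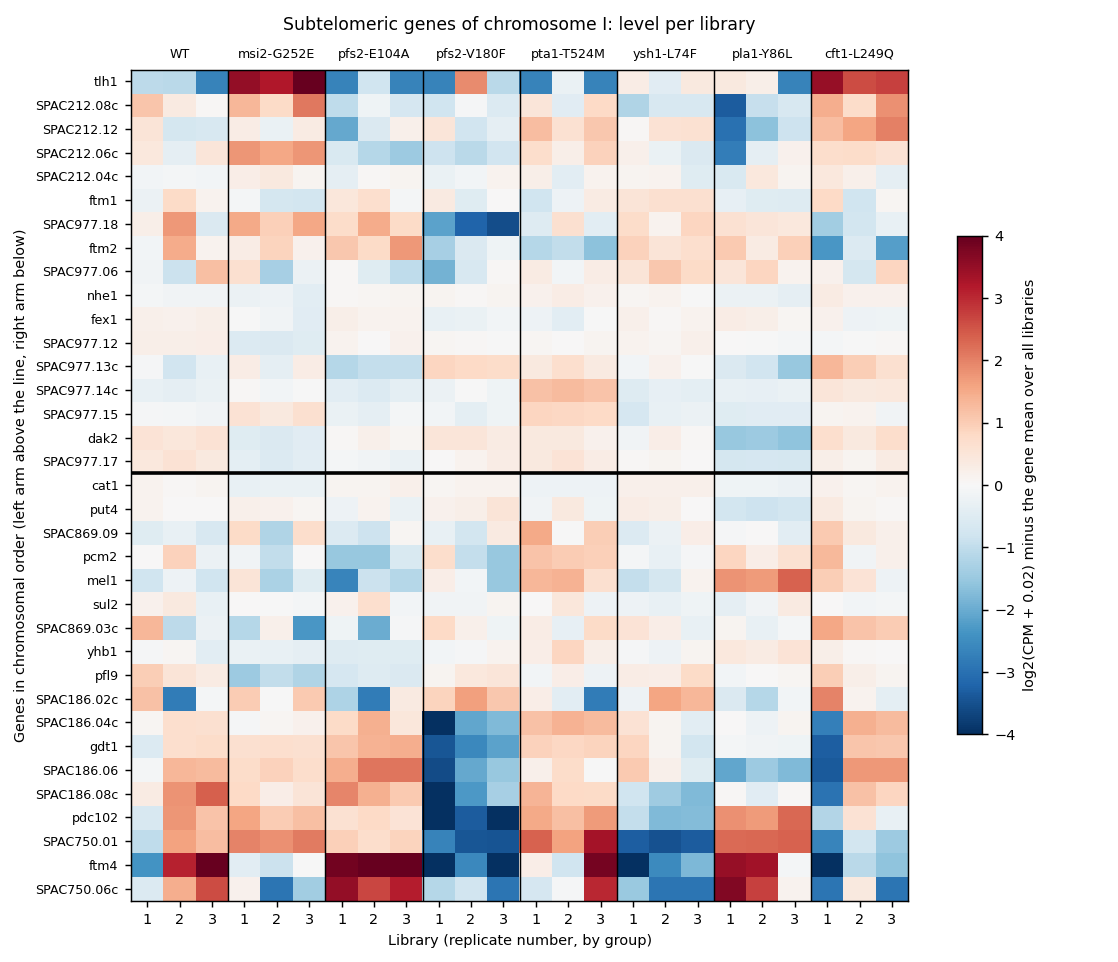
Level of each of the 35 tested members in each of the 24 libraries, as log2(CPM + 0.02) minus the gene's mean over all libraries, with genes in chromosomal order and the left arm above the line. In the lower rows the pfs2-V180F libraries and cft1-L249Q replicate 1 are blue from SPAC186.04c outward, WT replicate 1 is lower than the other WT libraries, and the rows from cat1 to pfl9 lack these blocks.

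The counts of members called at an adjusted p under 0.05 (edgeR quasi-likelihood test, Benjamini-Hochberg adjustment over all 6287 genes) are read against the same shares over all genes tested. In msi2-G252E, 5 tested members rose and 9 fell, and of these 6 were at least 2-fold apart, beside 29.3% of all genes rising, 29.5% falling and 6.01% called at least 2-fold apart. In pfs2-E104A, 1 rose and 8 fell, with 3 at least 2-fold apart (all genes: 18.1%, 16.1% and 1.45%). In pfs2-V180F, 3 rose and 13 fell, with 11 at least 2-fold apart (all genes: 24.1%, 24% and 3.36%). In these 3 mutants the share of members that rose was below the background, and the shares that fell or moved at least 2-fold were near or above it.

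For pta1-T524M, 9 tested members rose and 5 fell, with 6 at least 2-fold apart (all genes: 18.7%, 19.8% and 2.18%). The ysh1-L74F comparison had 2 that rose and 7 that fell, with 4 at least 2-fold apart (all genes: 7.57%, 6.84% and 0.414%). For pla1-Y86L, 4 rose and 13 fell, with 8 at least 2-fold apart (all genes: 32.2%, 32.4% and 6.89%). For cft1-L249Q, 5 rose and 8 fell, with 9 at least 2-fold apart (all genes: 22.3%, 21.0% and 2.56%). Between the alleles, with pfs2-V180F set against pfs2-E104A, 7 members were higher and 11 lower, with 11 at least 2-fold apart (all genes: 19.6%, 18.6% and 2.40%). In each comparison the number of members at least 2-fold apart was a larger share of the 35 tested than among all genes, with the filter above as a limit on that reading. Their wider spread between replicates (median SD in WT 0.464 beside 0.0623) is another limit, since small changes are harder to call in uneven genes. Median log2 differences of the tested members lay between -0.27 in pfs2-V180F and 0.12 in cft1-L249Q, beside medians over all genes of -0.01 to 0.01.

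**Figure D3:**
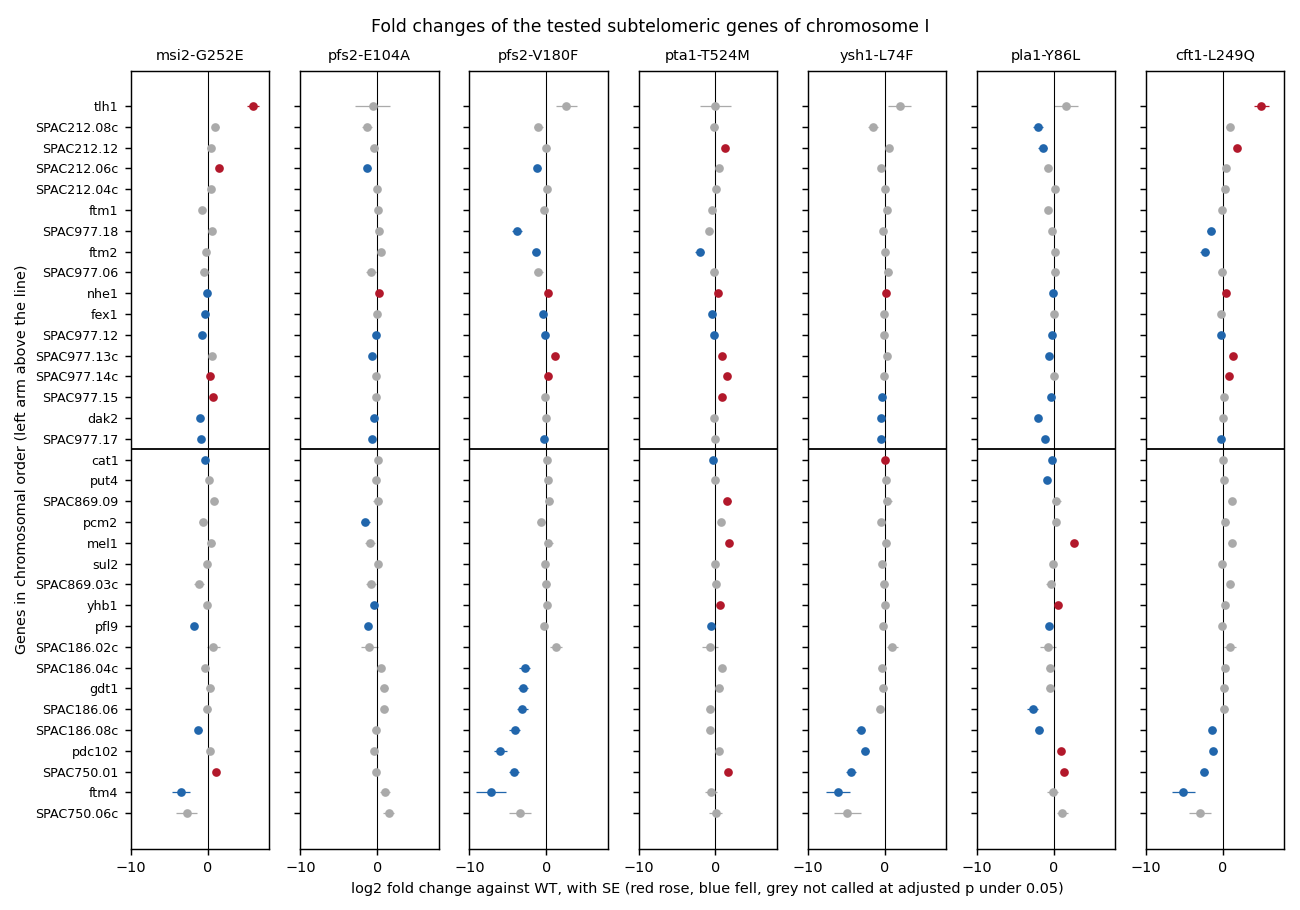
Log2 fold change against WT (x axis) with its SE for each of the 35 tested members in chromosomal order (y axis), 1 panel per mutant; red points rose, blue points fell and grey points were not called. The lower rows of the pfs2-V180F panel hold a block of blue points from SPAC186.04c to ftm4; fitted values for tlh1, pdc102 and ftm4 rest on very few reads in 1 of the groups.

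The outermost well-expressed gene of the right end is SPAC750.01, which encodes an aldo/keto reductase, an enzyme family that reduces carbonyl groups. Its level in replicates 1, 2 and 3 was 6.54, 40.4 and 31.1 CPM in WT, 52.2, 47.1 and 55.8 in msi2-G252E, 25.8, 21.4 and 24.6 in pfs2-E104A and 2.06, 1.22 and 1.18 in pfs2-V180F. It was 68.2, 40.7 and 133 CPM in pta1-T524M, 1.34, 1.16 and 1.31 in ysh1-L74F, 63.6, 65.8 and 68.5 in pla1-Y86L and 2.103, 7.92 and 4.83 in cft1-L249Q. The pfs2-V180F and ysh1-L74F libraries were lower than every other library, with cft1-L249Q replicate 1 next. WT replicate 1 was low in its group, and cft1-L249Q replicate 2 overlapped it. On the log2 scale the gene fell with a log2 fold change of -4.36 ± 0.63 (SE, edgeR adjusted p = 0.000104) in ysh1-L74F, -4.17 ± 0.63 (SE, edgeR adjusted p = 1.10e-05) in pfs2-V180F and -2.44 ± 0.51 (SE, edgeR adjusted p = 0.000512) in cft1-L249Q. It rose with a log2 fold change of 1.63 ± 0.37 (SE, edgeR adjusted p = 0.00145) in pta1-T524M and one of 1.33 ± 0.37 (SE, edgeR adjusted p = 0.00347) in pla1-Y86L. Each of those 5 calls held without any 1 library of the groups compared. The rise (log2 fold change) of 0.98 ± 0.38 (SE, edgeR adjusted p = 0.0295) in msi2-G252E did not: it was 0.53 without WT replicate 1, and it was also not called without msi2-G252E replicate 1 (0.98) or replicate 3 (0.93), by DESeq2 or with robust shrinkage. In pta1-T524M the value was 1.63 with all libraries and 1.06 without pta1-T524M replicate 3, and was called in both. Because RNA was measured in bulk, fewer cells expressing such a gene and less RNA per cell cannot be told apart here or below.

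The gene gdt1 (SPAC186.05c) is a well-expressed unique gene of the same run. It encodes a GDT1-like protein, whose budding yeast relative moves calcium and manganese into the Golgi. Its level was 29.0, 67.8 and 70.7 CPM in WT, 66.6, 67.6 and 65.5 in msi2-G252E, 90.6, 112 and 116 in pfs2-E104A and 3.94, 7.10 and 9.58 in pfs2-V180F. It was 80.4, 75.7 and 78.2 CPM in pta1-T524M, 77.1, 45.9 and 25.4 in ysh1-L74F, 39.99, 38.4 and 37.9 in pla1-Y86L and 4.28, 90.8 and 90.4 in cft1-L249Q. The pfs2-V180F libraries lay below every library of the other groups except cft1-L249Q replicate 1, which stood beside them while replicates 2 and 3 of that strain were above every WT library. The ysh1-L74F replicates were spread out, whereas those of msi2-G252E, pta1-T524M and pla1-Y86L were tight. In pfs2-V180F the gene fell with a log2 fold change of -3.00 ± 0.64 (SE, edgeR adjusted p = 0.000552), a value of -3.30 to -2.76 when 1 library at a time was left out. The estimate for cft1-L249Q was 0.12 ± 0.50 (SE, edgeR adjusted p = 0.863), and without cft1-L249Q replicate 1 it was 0.69 with an edgeR adjusted p of 0.076. Neither pfs2-E104A, at 0.92 ± 0.49 (SE, edgeR adjusted p = 0.153), nor ysh1-L74F, at -0.17 ± 0.50 (SE, edgeR adjusted p = 0.852), passed the test, and with WT this uneven a p above the threshold does not show equal levels.

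On the inner side of gdt1, SPAC186.04c (function unknown) is the last gene of the run. It read 1.46, 2.19 and 2.14 CPM in WT, 1.34, 1.47 and 1.56 in msi2-G252E, 2.34, 3.70 and 1.89 in pfs2-E104A and 0.0480, 0.313 and 0.394 in pfs2-V180F. The other groups read 3.12, 3.67 and 3.31 CPM in pta1-T524M, 2.07, 1.49 and 1.02 in ysh1-L74F, 1.39, 1.20 and 1.49 in pla1-Y86L and 0.188, 3.73 and 3.31 in cft1-L249Q. Again all pfs2-V180F libraries and cft1-L249Q replicate 1 were lowest, and no other library overlapped them. The gene fell with a log2 fold change of -2.84 ± 0.69 (SE, edgeR adjusted p = 0.00175) in pfs2-V180F and was called in no other mutant. Its cft1-L249Q value of 0.27 ± 0.45 (SE, edgeR adjusted p = 0.663) became 0.86 and was called a rise without cft1-L249Q replicate 1.

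On the outer side, SPAC186.06 is annotated as an isomerase gene. Its level was 2.37, 6.33 and 6.07 CPM in WT, 4.17, 4.80 and 4.12 in msi2-G252E, 6.89, 11.2 and 11.1 in pfs2-E104A and 0.192, 0.592 and 0.867 in pfs2-V180F. It was 2.86, 4.21 and 2.47 CPM in pta1-T524M, 5.22, 2.86 and 1.79 in ysh1-L74F, 0.585, 0.903 and 0.726 in pla1-Y86L and 0.225, 8.40 and 8.39 in cft1-L249Q. Here the pla1-Y86L libraries joined the low ones, and neither they nor pfs2-V180F overlapped WT. The gene fell with a log2 fold change of -3.10 ± 0.76 (SE, edgeR adjusted p = 0.00191) in pfs2-V180F and one of -2.75 ± 0.72 (SE, edgeR adjusted p = 0.00197) in pla1-Y86L. In pla1-Y86L the inner neighbours gdt1 and SPAC186.04c were not called, at -0.53 ± 0.51 (SE, edgeR adjusted p = 0.375) and -0.50 ± 0.49 (SE, edgeR adjusted p = 0.382). Its value in cft1-L249Q was 0.16 ± 0.52 (SE, edgeR adjusted p = 0.832), again with replicate 1 far under the other two.

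Further out, SPAC186.08c encodes an L-lactate dehydrogenase, which interconverts pyruvate and lactate. It had 0.541, 1.51 and 2.32 CPM in WT, 0.744, 0.515 and 0.611 in msi2-G252E, 1.70, 1.16 and 0.891 in pfs2-E104A and 0, 0.0696 and 0.158 in pfs2-V180F. It had 1.11, 0.758 and 0.727 CPM in pta1-T524M, 0.234, 0.145 and 0.109 in ysh1-L74F, 0.439, 0.301 and 0.436 in pla1-Y86L and 0.0376, 0.978 and 0.783 in cft1-L249Q. The pfs2-V180F, ysh1-L74F and pla1-Y86L libraries were all below the lowest WT library, replicate 1. The falls were log2 fold changes of -4.13 ± 0.74 (SE, edgeR adjusted p = 7.99e-05) in pfs2-V180F, -3.13 ± 0.61 (SE, edgeR adjusted p = 0.00181) in ysh1-L74F and -1.89 ± 0.52 (SE, edgeR adjusted p = 0.00304) in pla1-Y86L, and each held without any 1 library. Smaller falls in msi2-G252E, at -1.24 ± 0.47 (SE, edgeR adjusted p = 0.029), and in cft1-L249Q, at -1.36 ± 0.49 (SE, edgeR adjusted p = 0.0293), were not called without WT replicate 3 (-0.72 and -0.85) or WT replicate 2 (-1.22 and -1.35). The first was also lost without msi2-G252E replicate 2 (-1.12) or replicate 3 (-1.22), and the second without cft1-L249Q replicate 1 (-0.75).

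The next gene, pdc102 (SPAC186.09), encodes a pyruvate decarboxylase, the enzyme that turns pyruvate into acetaldehyde. Its level was 0.333, 1.87 and 1.20 CPM in WT, 1.64, 1.11 and 1.26 in msi2-G252E, 0.832, 0.953 and 0.786 in pfs2-E104A and 0, 0.0348 and 0 in pfs2-V180F. It was 1.56, 1.26 and 1.78 CPM in pta1-T524M, 0.268, 0.145 and 0.146 in ysh1-L74F, 1.94, 1.81 and 2.72 in pla1-Y86L and 0.225, 0.800 and 0.435 in cft1-L249Q. The ysh1-L74F libraries lay just under WT replicate 1, and in pfs2-V180F a single read was counted. It fell with a log2 fold change of -2.57 ± 0.52 (SE, edgeR adjusted p = 0.00239) in ysh1-L74F. With 1 read in pfs2-V180F against 87 in WT, the ratio was 0.0116 with an exact 95% Poisson interval of 0.000291 to 0.0665, which covers counting error only. A rise (log2 fold change) of 0.92 ± 0.33 (SE, edgeR adjusted p = 0.0173) in pla1-Y86L was 0.50 and not called without WT replicate 1, and 0.71 and not called without pla1-Y86L replicate 3. A fall (log2 fold change) of -1.26 ± 0.45 (SE, edgeR adjusted p = 0.0251) in cft1-L249Q was not called without WT replicate 2 (-0.72), nor without WT replicate 3 (-1.23), cft1-L249Q replicate 1 (-0.89) or replicate 3 (-1.21).

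The gene ftm4 (SPAC750.05c), of a family of predicted transmembrane proteins, behaved in a nearly on-or-off manner. It had 0.0417, 2.71 and 5.14 CPM in WT, 0.223, 0.159 and 0.305 in msi2-G252E, 4.67, 5.66 and 6.13 in pfs2-E104A and 0, 0.0348 and 0 in pfs2-V180F. It had 0.372, 0.169 and 4.58 CPM in pta1-T524M, 0, 0.0362 and 0.0730 in ysh1-L74F, 3.66, 3.35 and 0.290 in pla1-Y86L and 0, 0.133 and 0.0870 in cft1-L249Q. Levels of 2.71 CPM or more were found in WT replicates 2 and 3, all of pfs2-E104A, pta1-T524M replicate 3 and pla1-Y86L replicates 1 and 2, and the other 16 libraries had at most 0.372. Against WT the ratio of reads was 0.00491 (1 against 206 reads, interval 0.000124 to 0.0277) in pfs2-V180F and 0.0130 (3 against 206 reads, interval 0.00266 to 0.0385) in ysh1-L74F. Both intervals cover counting error only and not the spread between replicates. That spread was wide, as the 206 WT reads were 1, 68 and 137 in replicates 1, 2 and 3. The ysh1-L74F call was lost without WT replicate 3, ysh1-L74F replicate 1 or replicate 2. That group also overlapped WT, its replicate 3 at 0.0730 CPM being above WT replicate 1 at 0.0417. In msi2-G252E, at -3.52 ± 1.14 (SE, edgeR adjusted p = 0.0107), and cft1-L249Q, at -5.17 ± 1.48 (SE, edgeR adjusted p = 0.00698), the fall was not called without WT replicate 3 (-2.58 and -4.24), and both groups overlapped WT through WT replicate 1. The pta1-T524M value was -0.60 ± 0.76 (SE, edgeR adjusted p = 0.564), and without pta1-T524M replicate 3 it was -3.26 and called.

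Its neighbour SPAC750.06c, of unknown function, followed at lower levels. It had 0.0833, 0.398 and 0.900 CPM in WT, 0.149, 0 and 0.0382 in msi2-G252E, 1.70, 0.953 and 1.31 in pfs2-E104A and 0.0480, 0.0696 and 0 in pfs2-V180F. It had 0.0743, 0.126 and 1.20 CPM in pta1-T524M, 0.0335, 0 and 0 in ysh1-L74F, 1.94, 0.989 and 0.145 in pla1-Y86L and 0, 0.178 and 0 in cft1-L249Q. The highest libraries were again those of pfs2-E104A, pta1-T524M replicate 3, pla1-Y86L replicates 1 and 2 and WT replicate 3. It was not called against WT in any mutant. Because 90.6% of its 50-base stretches and 92.4% of those of ftm4 are repeated in the genome, these 2 genes may share reads with copies at other chromosome ends.

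**Figure D4:**
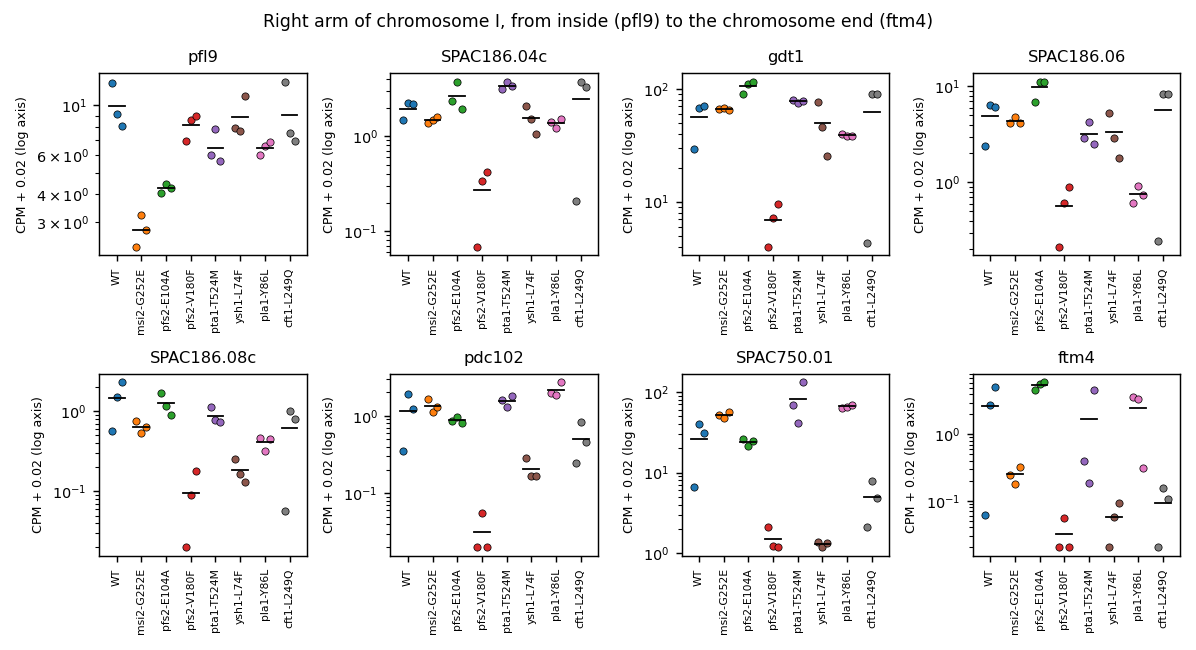
Level per library (y axis, CPM + 0.02 on a log axis) of 8 right arm genes from pfl9 on the inside to ftm4 near the chromosome end, with the 8 groups on the x axis, 3 points per group and a bar at the group mean. For gdt1, WT spans 29.0 to 70.7 CPM, pfs2-V180F 3.94 to 9.58, and cft1-L249Q has 1 point at 4.28 beside points at 90.8 and 90.4.

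Further inward the picture differed between genes. SPAC186.03 (an L-asparaginase gene) and SPAC186.02c (a hydroxyacid dehydrogenase gene) were too low to follow in single libraries. The first had 18 reads in WT, 7 in pfs2-V180F and 17 in cft1-L249Q. SPAC186.02c read 0.292, 0 and 0.113 CPM in WT and 0.240, 0.418 and 0.276 in pfs2-V180F, with a log2 difference of 1.24 ± 0.76 (SE, edgeR adjusted p = 0.182). Next to them, pfl9 (SPAC186.01), which encodes a cell-surface glycoprotein of the DIPSY family, had 12.6, 9.11 and 8.06 CPM in WT, 2.31, 3.21 and 2.75 in msi2-G252E, 4.04, 4.45 and 4.25 in pfs2-E104A and 6.91, 8.56 and 8.95 in pfs2-V180F. It had 5.98, 7.79 and 5.60 CPM in pta1-T524M, 7.89, 7.65 and 10.98 in ysh1-L74F, 5.96, 6.54 and 6.83 in pla1-Y86L and 12.8, 7.47 and 6.91 in cft1-L249Q. WT replicate 1 and cft1-L249Q replicate 1, which were low for gdt1, were the highest libraries for pfl9. The gene fell, with a log2 fold change of -1.84 ± 0.23 (SE, edgeR adjusted p = 3.77e-07) in msi2-G252E and -1.22 ± 0.22 (SE, edgeR adjusted p = 0.0002) in pfs2-E104A, in neither of which the libraries overlapped WT. Falls (log2 fold changes) of -0.62 ± 0.20 (SE, edgeR adjusted p = 0.0181) in pta1-T524M and -0.62 ± 0.20 (SE, edgeR adjusted p = 0.00995) in pla1-Y86L were -0.42 and -0.41 without WT replicate 1 and no longer called, the first also not without pta1-T524M replicate 1 (-0.57) or replicate 3 (-0.53). Of the genes of other name series that lie between members, the noncoding RNA gene prl61, which sits between SPAC186.07c and SPAC186.08c and overlaps SPAC186.07c on the opposite strand, fell with a log2 fold change of -4.09 ± 0.80 (SE, edgeR adjusted p = 0.000215) in pfs2-V180F.

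The pfs2 alleles share the asp1 marker, and their comparison uses none of the WT libraries. All 8 tested genes of the run, a stretch delimited after the values were seen, were lower in pfs2-V180F than in its sister allele pfs2-E104A. The differences were -3.92 ± 0.63 (SE, edgeR adjusted p = 3.31e-05) for gdt1, -3.28 ± 0.67 (SE, edgeR adjusted p = 0.000462) for SPAC186.04c and -4.06 ± 0.71 (SE, edgeR adjusted p = 8.63e-05) for SPAC186.06. They were -3.92 ± 0.78 (SE, edgeR adjusted p = 0.000343) for SPAC186.08c and -4.05 ± 0.65 (SE, edgeR adjusted p = 3.08e-05) for SPAC750.01. With all libraries of 1 allele above those of the other, each of these differences was larger than the spread between replicates, and each call held without any 1 library. By reads, pdc102 had 1 against 54 (ratio 0.0156, interval 0.000388 to 0.0908), ftm4 had 1 against 342 (ratio 0.00247, interval 6.23e-05 to 0.0138), and SPAC750.06c had 3 against 86 (ratio 0.0294, interval 0.00595 to 0.0889). These intervals, too, cover counting error only. Further inward the sign was the opposite for pfl9, which was higher in pfs2-V180F with a log2 difference of 0.95 ± 0.23 (SE, edgeR adjusted p = 0.00188), for yhb1, at 0.49 ± 0.13 (SE, edgeR adjusted p = 0.00465) and for put4, at 0.43 ± 0.12 (SE, edgeR adjusted p = 0.00819).

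The SPAC869. block lies inward of pfl9 and holds transporters and enzymes of unique sequence. Called changes of its transporter genes were all under 2-fold. The arginine and lysine transporter gene cat1 had 137, 129 and 136 CPM in WT, 103, 104.5 and 104.3 in msi2-G252E, 137, 136 and 144 in pfs2-E104A and 133, 139 and 138 in pfs2-V180F. It had 109.8, 109 and 109.9 CPM in pta1-T524M, 144, 143 and 145 in ysh1-L74F, 111, 112 and 106 in pla1-Y86L and 143, 132 and 137 in cft1-L249Q. The msi2-G252E, pta1-T524M and pla1-Y86L libraries lay below every WT library, and the log2 fold changes were -0.37 ± 0.03 (SE, edgeR adjusted p = 3.40e-09), -0.29 ± 0.03 (SE, edgeR adjusted p = 3.73e-07) and -0.29 ± 0.03 (SE, edgeR adjusted p = 9.63e-08). A small rise (log2 fold change) of 0.10 ± 0.03 (SE, edgeR adjusted p = 0.036) in ysh1-L74F was not called when WT replicate 2 or 3 or any of the ysh1-L74F libraries was left out.

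The proline transporter gene put4 had 45.8, 42.1 and 42.5 CPM in WT and 25.0, 23.5 and 24.9 in pla1-Y86L, and its libraries in the other 6 mutants ran from 34.5 to 59.6 CPM. It fell with a log2 fold change of -0.83 ± 0.13 (SE, edgeR adjusted p = 6.11e-06) in pla1-Y86L and was not called against WT elsewhere. It overlaps the noncoding RNA gene SPNCRNA.1091 on the opposite strand over 1637 bases of the annotation, and that RNA rose with a log2 fold change of 0.92 ± 0.10 (SE, edgeR adjusted p = 3.90e-08) in the same mutant. The strand setting of the counting is not known here, so reads of the 2 genes may not be fully separated. The sulfate transporter gene sul2 was called in no mutant, with WT libraries of 46.5, 54.2 and 33.5 CPM. The urea transporter gene SPAC869.03c, among the members with the widest range between WT replicates, had 0.708, 0.119 and 0.225 CPM in WT, 0.112, 0.317 and 0.0382 in msi2-G252E, 0.238, 0.0529 and 0.262 in pfs2-E104A and 0.480, 0.313 and 0.237 in pfs2-V180F. It had 0.335, 0.211 and 0.473 CPM in pta1-T524M, 0.401, 0.326 and 0.219 in ysh1-L74F, 0.292, 0.215 and 0.254 in pla1-Y86L and 0.826, 0.623 and 0.565 in cft1-L249Q, and it was called in none.

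Among the enzyme genes of this block, mel1 rose in 2 mutants. It encodes a melibiase, an alpha-galactosidase that splits melibiose. It had 0.333, 0.517 and 0.337 CPM in WT, 0.855, 0.238 and 0.420 in msi2-G252E, 0.0792, 0.318 and 0.262 in pfs2-E104A and 0.720, 0.557 and 0.197 in pfs2-V180F. It had 1.52, 1.601 and 0.945 CPM in pta1-T524M, 0.301, 0.362 and 0.657 in ysh1-L74F, 2.12, 1.98 and 3.12 in pla1-Y86L and 1.20, 0.889 and 0.522 in cft1-L249Q. The pla1-Y86L libraries were the highest of all, and those of pta1-T524M and cft1-L249Q were also above every WT library. The rises were log2 fold changes of 2.60 ± 0.39 (SE, edgeR adjusted p = 4.15e-06) in pla1-Y86L, from 30 reads over the WT libraries to 190, and 1.75 ± 0.43 (SE, edgeR adjusted p = 0.00272) in pta1-T524M. The cft1-L249Q value of 1.15 ± 0.47 (SE, edgeR adjusted p = 0.0535) did not pass the test.

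The nitric oxide dioxygenase gene yhb1 had 179.7, 196 and 139 CPM in WT, 154, 152 and 145 in msi2-G252E, 129.9, 133 and 132 in pfs2-E104A and 170.3, 179.8 and 204 in pfs2-V180F. It had 225, 338 and 220.4 CPM in pta1-T524M, 180, 161 and 201 in ysh1-L74F, 247, 233 and 270.2 in pla1-Y86L and 216, 189.9 and 188 in cft1-L249Q. Libraries of pta1-T524M and pla1-Y86L lay above every WT library. It rose with a log2 fold change of 0.61 ± 0.13 (SE, edgeR adjusted p = 0.000642) in pta1-T524M and one of 0.55 ± 0.13 (SE, edgeR adjusted p = 0.000692) in pla1-Y86L. The fall (log2 fold change) of -0.38 ± 0.13 (SE, edgeR adjusted p = 0.0276) in pfs2-E104A was not called when WT replicate 1 or 2, or any of the pfs2-E104A libraries, was left out.

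Low-level enzyme genes of the block gave calls on few reads. The protein repair methyltransferase gene pcm2 had 0.4999, 0.955 and 0.412 CPM in WT, 0.446, 0.238 and 0.496 in msi2-G252E, 0.158, 0.159 and 0.315 in pfs2-E104A and 0.816, 0.244 and 0.158 in pfs2-V180F. It had 1.11, 1.01 and 0.982 CPM in pta1-T524M, 0.468, 0.399 and 0.474 in ysh1-L74F, 0.914, 0.602 and 0.762 in pla1-Y86L and 1.24, 0.445 and 0.565 in cft1-L249Q. Its level fell with a log2 fold change of -1.57 ± 0.57 (SE, edgeR adjusted p = 0.0377) in pfs2-E104A, on 13 reads against 47, a call lost without WT replicate 2 (-1.12), pfs2-E104A replicate 1 (-1.37) or replicate 2 (-1.44). SPAC869.09, of the Con-6 family, had 0.208, 0.239 and 0.187 CPM in WT, 0.521, 0.119 and 0.496 in msi2-G252E, 0.198, 0.159 and 0.315 in pfs2-E104A and 0.240, 0.174 and 0.394 in pfs2-V180F. It had 0.892, 0.295 and 0.618 CPM in pta1-T524M, 0.201, 0.254 and 0.365 in ysh1-L74F, 0.292, 0.301 and 0.218 in pla1-Y86L and 0.638, 0.400 and 0.348 in cft1-L249Q. It rose with a log2 fold change of 1.51 ± 0.46 (SE, edgeR adjusted p = 0.0127) in pta1-T524M, a call lost without pta1-T524M replicate 1 (1.13).

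At the left end the terminal gene is tlh1, which encodes a RecQ type DNA helicase. It had 0.0417, 0.0398 and 0 CPM in WT, 1.41, 1.15 and 2.86 in msi2-G252E, 0, 0.0529 and 0 in pfs2-E104A and 0, 0.453 and 0.0394 in pfs2-V180F. It had 0, 0.0843 and 0 CPM in pta1-T524M, 0.134, 0.0725 and 0.146 in ysh1-L74F, 0.146, 0.129 and 0 in pla1-Y86L and 1.39, 0.756 and 0.826 in cft1-L249Q. The msi2-G252E and cft1-L249Q libraries were all above those of every other group, and 1 pfs2-V180F library stood apart from its own group at 0.453. The reads rose from 2 over the WT libraries to 142 in msi2-G252E, a ratio of 68.7 (interval 18.7 to 573), and to 73 in cft1-L249Q, a ratio of 38.4 (interval 10.2 to 323). With so few reads elsewhere, tlh1 passed the filter on low counts through these groups, so it had to differ there. The intervals cover counting error only and not the spread between replicates, which held 38, 29 and 75 reads in msi2-G252E. The 14 reads of pfs2-V180F gave a ratio of 7.08 (interval 1.63 to 64.2), nearly all from that library, and the gene was not called there. Among outer genes of the right end in msi2-G252E and cft1-L249Q, ftm4 fell in both, and SPAC750.01 was higher in the first and lower in the second. Neither mutant had a call for gdt1. The ftm4 falls were not called without WT replicate 3, nor the SPAC750.01 rise without WT replicate 1.

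Next to tlh1, the tested SPAC212. genes were expressed at low levels. SPAC212.06c encodes a DNA helicase-like protein. It had 0.833, 0.477 and 0.862 CPM in WT, 2.12, 1.82 and 2.14 in msi2-G252E, 0.396, 0.265 and 0.210 in pfs2-E104A and 0.336, 0.279 and 0.355 in pfs2-V180F. It had 1.00, 0.716 and 1.16 CPM in pta1-T524M, 0.702, 0.507 and 0.401 in ysh1-L74F, 0.0731, 0.473 and 0.690 in pla1-Y86L and 1.01, 1.02 and 0.913 in cft1-L249Q. Its msi2-G252E libraries were the highest, as for tlh1, and the gene rose there with a log2 fold change of 1.48 ± 0.29 (SE, edgeR adjusted p = 0.000153). It fell with a log2 fold change of -1.26 ± 0.45 (SE, edgeR adjusted p = 0.033) in pfs2-E104A and one of -1.17 ± 0.42 (SE, edgeR adjusted p = 0.0267) in pfs2-V180F, calls lost without WT replicate 1 (-1.16 and -1.06), WT replicate 3 (-1.11 and -1.01) or replicate 2 of the mutant (-1.19 and -1.06). The pfs2-E104A call was also lost without its replicate 3 (-1.09).

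SPAC212.12 and SPAC212.08c encode GPI-anchored surface proteins. SPAC212.12 had 1.04, 0.438 and 0.450 CPM in WT, 0.892, 0.595 and 0.916 in msi2-G252E, 0.158, 0.476 and 0.839 in pfs2-E104A and 1.01, 0.418 and 0.552 in pfs2-V180F. It had 1.71, 1.09 and 1.53 CPM in pta1-T524M, 0.736, 1.09 and 1.09 in ysh1-L74F, 0.0731, 0.215 and 0.399 in pla1-Y86L and 1.73, 2.18 and 2.96 in cft1-L249Q. All cft1-L249Q libraries were above the other groups, and the gene rose there with a log2 fold change of 1.83 ± 0.37 (SE, edgeR adjusted p = 0.000359). A rise (log2 fold change) of 1.19 ± 0.39 (SE, edgeR adjusted p = 0.0198) in pta1-T524M and a fall of -1.44 ± 0.57 (SE, edgeR adjusted p = 0.0321) in pla1-Y86L were called with all libraries. The first, in which no pta1-T524M library overlapped WT, was lost without WT replicate 2 (0.98), WT replicate 3 (0.98), pta1-T524M replicate 1 (1.05) or replicate 3 (1.15). The second was lost without WT replicate 1 (-0.93), pla1-Y86L replicate 1 (-1.0) or replicate 2 (-1.40).

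SPAC212.08c had 0.417, 0.239 and 0.187 CPM in WT, 0.483, 0.317 and 0.840 in msi2-G252E, 0.0792, 0.159 and 0.105 in pfs2-E104A and 0.0960, 0.174 and 0.118 in pfs2-V180F. It had 0.260, 0.126 and 0.327 CPM in pta1-T524M, 0.0669, 0.109 and 0.109 in ysh1-L74F, 0, 0.0860 and 0.109 in pla1-Y86L and 0.526, 0.311 and 0.696 in cft1-L249Q. Its levels in pla1-Y86L were below every WT library. The fall there was -2.03 ± 0.68 (SE, edgeR adjusted p = 0.0123), on 5 reads against 21, and it was lost without WT replicate 1 (-1.66) or pla1-Y86L replicate 1 (-1.45). The last tested gene of the block, SPAC212.04c of unknown function, was even in WT and was called in no mutant, although its pla1-Y86L libraries, at 3.36, 6.88 and 5.48 CPM, ranged over more than 2-fold. It had 4.79, 4.85 and 4.76 CPM in WT.

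The outer SPAC977. genes shared some of the unevenness of the right end. SPAC977.18, of unknown function, had 1.33, 3.78 and 0.750 CPM in WT, 3.23, 2.18 and 3.32 in msi2-G252E, 1.90, 3.17 and 1.94 in pfs2-E104A and 0.240, 0.104 and 0.0789 in pfs2-V180F. It had 0.780, 1.77 and 0.836 CPM in pta1-T524M, 1.91, 1.23 and 2.04 in ysh1-L74F, 1.72, 1.59 and 1.52 in pla1-Y86L and 0.413, 0.667 and 0.913 in cft1-L249Q. The pfs2-V180F libraries were the lowest of all, and WT replicate 2, not replicate 1, stood apart from its group. Expression fell with a log2 fold change of -3.81 ± 0.67 (SE, edgeR adjusted p = 6.83e-05) in pfs2-V180F, on 10 reads against 147, and was lower there than in pfs2-E104A, with a log2 difference of -4.06 ± 0.66 (SE, edgeR adjusted p = 4.06e-05). A fall (log2 fold change) of -1.57 ± 0.48 (SE, edgeR adjusted p = 0.0119) in cft1-L249Q was -0.65 and not called without WT replicate 2, and was also lost without cft1-L249Q replicate 1 (-1.29).

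Its neighbour ftm2, of the same family as ftm4, had 0.250, 0.796 and 0.300 CPM in WT, 0.335, 0.515 and 0.305 in msi2-G252E, 0.594, 0.476 and 0.944 in pfs2-E104A and 0.0960, 0.174 and 0.237 in pfs2-V180F. It had 0.112, 0.126 and 0.0727 CPM in pta1-T524M, 0.535, 0.399 and 0.438 in ysh1-L74F, 0.585, 0.344 and 0.545 in pla1-Y86L and 0.0376, 0.178 and 0.0435 in cft1-L249Q. Libraries of pta1-T524M, cft1-L249Q and pfs2-V180F lay below every WT library. The fall (log2 fold change) of -2.36 ± 0.60 (SE, edgeR adjusted p = 0.00283) in cft1-L249Q held without any 1 library. Those of -2.08 ± 0.56 (SE, edgeR adjusted p = 0.00536) in pta1-T524M and -1.35 ± 0.50 (SE, edgeR adjusted p = 0.0306) in pfs2-V180F did not hold without WT replicate 2 (-1.39 and -0.66), the second also not without pfs2-V180F replicate 1 (-1.12) or replicate 2 (-1.35). The nearby ftm1 and SPAC977.06 were called in no mutant, at 0.666, 1.35 and 0.862 and 0.208, 0.119 and 0.562 CPM in WT.

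Inward from there most genes were even between replicates, the pseudogene SPAC977.13c less so, and smaller changes were measurable. The sodium/proton antiporter gene nhe1 had 121, 116 and 116 CPM in WT, 109, 111 and 94.4 in msi2-G252E, 133, 134 and 139 in pfs2-E104A and 136, 131 and 137 in pfs2-V180F. It had 142, 156 and 145 CPM in pta1-T524M, 135, 142 and 125 in ysh1-L74F, 109, 109 and 99.6 in pla1-Y86L and 159, 144 and 143 in cft1-L249Q. No mutant library overlapped the WT range. Its largest rises were 0.34 ± 0.06 (SE, edgeR adjusted p = 4.65e-05) in cft1-L249Q and 0.33 ± 0.06 (SE, edgeR adjusted p = 7.31e-05) in pta1-T524M, with 0.20 ± 0.06 in pfs2-E104A and 0.20 ± 0.06 in pfs2-V180F. The ysh1-L74F call (0.19 ± 0.06) was lost without WT replicate 2 or 3 or ysh1-L74F replicate 1 or 2. The falls in msi2-G252E (-0.17 ± 0.06) and pla1-Y86L (-0.15 ± 0.06) were lost without WT replicate 1 (-0.15 and -0.13) or replicate 3 of the mutant (-0.10 and -0.11).

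The fluoride exporter gene fex1 had 10.5, 10.4 and 10.8 CPM in WT and fell with a log2 fold change of -0.44 ± 0.11 (SE, edgeR adjusted p = 0.00261) in pfs2-V180F, -0.41 ± 0.11 (SE, edgeR adjusted p = 0.00326) in msi2-G252E and -0.41 ± 0.11 (SE, edgeR adjusted p = 0.00555) in pta1-T524M. SPAC977.12 encodes an L-asparaginase, which splits asparagine into aspartate and ammonia. It had 98.2, 98.0 and 100.5 CPM in WT, 57.8, 56.3 and 60.2 in msi2-G252E, 92.1, 84.6 and 94.7 in pfs2-E104A and 88.4, 86.3 and 83.0 in pfs2-V180F. It had 89.8, 84.8 and 90.5 CPM in pta1-T524M, 92.0, 88.0 and 97.1 in ysh1-L74F, 85.5, 84.1 and 79.8 in pla1-Y86L and 79.6, 83.7 and 86.5 in cft1-L249Q. All mutant libraries were below all WT libraries, with msi2-G252E far below the rest. It fell with a log2 fold change of -0.77 ± 0.05 (SE, edgeR adjusted p = 2.45e-12) in msi2-G252E. Falls of -0.25 in pla1-Y86L and cft1-L249Q, -0.20 in pfs2-V180F and -0.16 in pta1-T524M also passed the test, the ysh1-L74F value of -0.10 ± 0.04 (SE, edgeR adjusted p = 0.139) did not, and the pfs2-E104A fall (log2 fold change) of -0.13 ± 0.05 was lost without any 1 of the WT libraries or without pfs2-E104A replicate 2 (-0.08).

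SPAC977.13c, an annotated pseudogene of unique sequence, had 3.42, 2.07 and 2.85 CPM in WT, 4.35, 2.78 and 4.39 in msi2-G252E, 1.58, 1.80 and 1.83 in pfs2-E104A and 6.43, 6.09 and 5.95 in pfs2-V180F. It had 4.61, 5.69 and 4.51 CPM in pta1-T524M, 3.28, 4.02 and 3.46 in ysh1-L74F, 2.34, 2.06 and 1.23 in pla1-Y86L and 8.82, 6.94 and 5.48 in cft1-L249Q. The cft1-L249Q, pfs2-V180F and pta1-T524M libraries were all above WT. It rose with a log2 fold change of 1.36 ± 0.20 (SE, edgeR adjusted p = 1.14e-05), 1.15 ± 0.20 (SE, edgeR adjusted p = 7.66e-05) and 0.83 ± 0.21 (SE, edgeR adjusted p = 0.00349) in those mutants. Falls in pfs2-E104A (-0.68 ± 0.26) and pla1-Y86L (-0.57 ± 0.24) were lost without WT replicate 1 (-0.51 and -0.40) or WT replicate 3 (-0.66 and -0.55). They were also lost without any 1 of the pfs2-E104A libraries and without pla1-Y86L replicate 2 (-0.63) or replicate 3 (-0.33). Between the alleles it was higher in pfs2-V180F, with a log2 difference of 1.83 ± 0.23 (SE, edgeR adjusted p = 1.53e-06), opposite in sign to the outer run of the right end from SPAC186.04c to SPAC750.06c.

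The next gene, SPAC977.14c, encodes a member of the aldo-keto reductase family, like SPAC750.01. It had 766, 737 and 770.5 CPM in WT, 962, 876 and 918 in msi2-G252E, 700.5, 641 and 721 in pfs2-E104A and 796, 935 and 831 in pfs2-V180F. It had 2111, 2253 and 2043 CPM in pta1-T524M, 658, 745 and 707 in ysh1-L74F, 767, 739 and 778 in pla1-Y86L and 1309, 1232 and 1266 in cft1-L249Q. The pta1-T524M libraries were the highest, those of cft1-L249Q followed, and neither group overlapped another. It rose with a log2 fold change of 1.50 ± 0.06 (SE, edgeR adjusted p = 3.89e-15) in pta1-T524M, 0.74 ± 0.06 (SE, edgeR adjusted p = 9.38e-10) in cft1-L249Q and 0.28 ± 0.06 (SE, edgeR adjusted p = 0.000285) in msi2-G252E. The pfs2-V180F rise (log2 fold change) of 0.17 ± 0.06 was lost without WT replicate 2 (0.15) or pfs2-V180F replicate 2 (0.10). Set beside it, the aldo-keto reductase gene SPAC750.01 of the other chromosome end also rose in pta1-T524M. Its rise in msi2-G252E was called with all libraries but not without WT replicate 1, and neither gene was called in pfs2-E104A. SPAC750.01 fell in cft1-L249Q and pfs2-V180F, where SPAC977.14c rose. In ysh1-L74F, where SPAC750.01 fell, SPAC977.14c gave -0.11 ± 0.06 (SE, edgeR adjusted p = 0.226), and in pla1-Y86L, where SPAC750.01 rose, it gave 0.01 ± 0.06 (SE, edgeR adjusted p = 0.922).

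SPAC977.15, of the dienelactone hydrolase family implicated in detoxification, had 14.9, 14.4 and 14.0 CPM in WT, 22.9, 20.1 and 24.1 in msi2-G252E and 27.5, 27.1 and 26.4 in pta1-T524M. In those mutants it rose with a log2 fold change of 0.63 ± 0.10 (SE, edgeR adjusted p = 7.44e-06) and 0.90 ± 0.10 (SE, edgeR adjusted p = 1.06e-07), with no overlap with WT. It fell in pla1-Y86L, where it had 11, 11.2 and 11.2 CPM, with a log2 fold change of -0.38 ± 0.10 (SE, edgeR adjusted p = 0.00297), and in ysh1-L74F, where it had 9.67, 12.4 and 13.1 CPM, with a log2 fold change of -0.31 ± 0.10 (SE, edgeR adjusted p = 0.0457).

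The innermost genes of the left end are dak2 and SPAC977.17. Dihydroxyacetone kinase, encoded by dak2, phosphorylates dihydroxyacetone for entry into glycolysis, and SPAC977.17 encodes a channel of the MIP superfamily, the family of aquaporins and glycerol channels. The dak2 level was 66.9, 63.1 and 68.7 CPM in WT, 32.9, 30.8 and 33.2 in msi2-G252E, 47.6, 52.2 and 48.1 in pfs2-E104A and 64.5, 63.5 and 58.1 in pfs2-V180F. It was 60.6, 60.5 and 51.3 CPM in pta1-T524M, 41.4, 54.7 and 47.5 in ysh1-L74F, 16.1, 16.7 and 14.9 in pla1-Y86L and 72.4, 59.5 and 73.8 in cft1-L249Q. The pla1-Y86L libraries were the lowest of all and those of msi2-G252E came next. A fall was called, with a log2 fold change of -2.06 ± 0.10 (SE, edgeR adjusted p = 2.63e-14) in pla1-Y86L, -1.03 ± 0.09 (SE, edgeR adjusted p = 1.08e-09) in msi2-G252E, -0.47 ± 0.09 (SE, edgeR adjusted p = 0.000953) in ysh1-L74F and -0.43 ± 0.09 (SE, edgeR adjusted p = 0.000619) in pfs2-E104A.

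SPAC977.17 had 83.6, 91.5 and 81.0 CPM in WT, 46.8, 42.4 and 46.2 in msi2-G252E, 57.9, 56.0 and 51.0 in pfs2-E104A and 63.0, 68.0 and 76.5 in pfs2-V180F. It had 80.8, 90.9 and 75.3 CPM in pta1-T524M, 63.5, 66.5 and 62.4 in ysh1-L74F, 37.6, 39.1 and 38.3 in pla1-Y86L and 72.6, 66.6 and 77.7 in cft1-L249Q. As for dak2, its pla1-Y86L libraries were the lowest and those of msi2-G252E came next. It fell with a log2 fold change of -1.16 ± 0.07 (SE, edgeR adjusted p = 7.33e-12) in pla1-Y86L, -0.92 ± 0.07 (SE, edgeR adjusted p = 3.44e-10) in msi2-G252E, -0.63 ± 0.07 (SE, edgeR adjusted p = 8.99e-07) in pfs2-E104A, -0.41 ± 0.07 (SE, edgeR adjusted p = 0.000617) in ysh1-L74F and -0.30 ± 0.07 (SE, edgeR adjusted p = 0.00135) in pfs2-V180F. A fall (log2 fold change) of -0.24 ± 0.07 (SE, edgeR adjusted p = 0.00927) in cft1-L249Q was lost without WT replicate 2 (-0.19) or cft1-L249Q replicate 2 (-0.18). The annotated stretches of dak2 and SPAC977.17 overlap by 454 bases on opposite strands, so their reads there may not be fully separated.

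**Figure D5:**
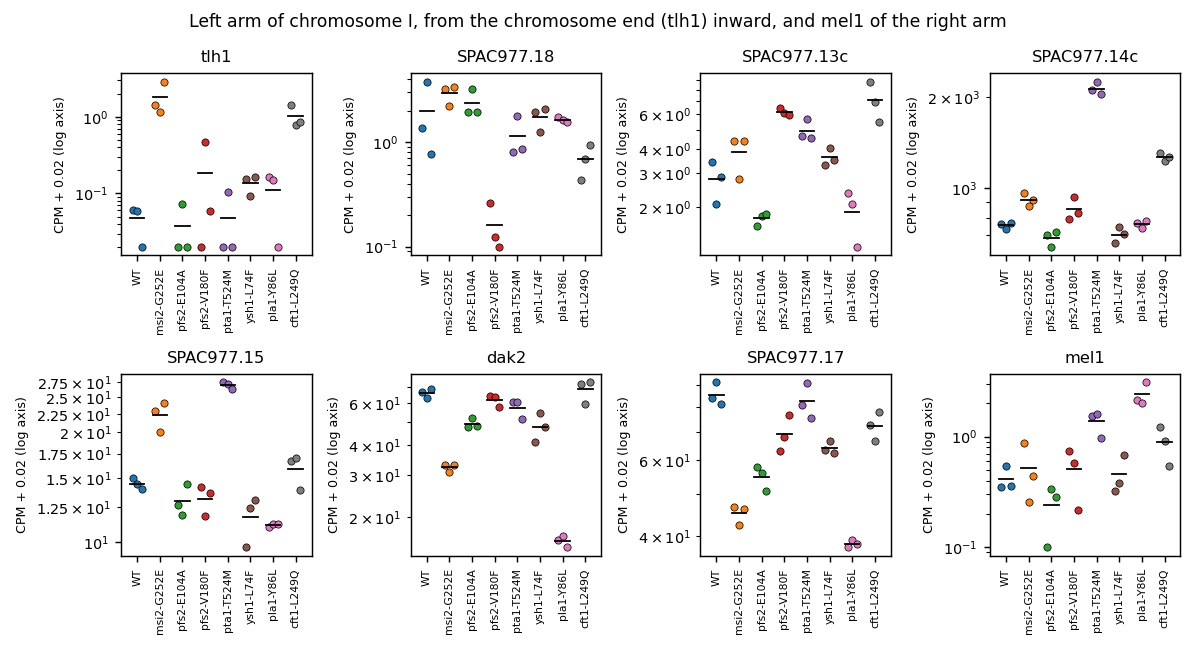
Level per library (y axis, CPM + 0.02 on a log axis) of 7 left arm genes from tlh1 at the chromosome end inward, and of mel1 of the right arm, with the 8 groups on the x axis, 3 points per group and a bar at the group mean. The pta1-T524M points of SPAC977.14c lie at 2043 to 2253 CPM above 737 to 770 in WT, and the pla1-Y86L points of dak2 at 14.9 to 16.7 CPM below 63.1 to 68.7 in WT.

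Summed over a block, the WT replicates differed most in the outer part of the right end. The SPAC977. genes together had 1167, 1140 and 1168 CPM in WT replicates 1, 2 and 3, and the SPAC869. genes 412, 423 and 352. The SPAC212. genes, several of them uneven singly, summed to 7.42, 6.29 and 6.45 CPM. The SPAC186. genes had 46.9, 89.3 and 91.2 CPM and the SPAC750. genes 6.67, 43.5 and 37.2. Replicate 1 was low in both outer right end blocks, and not in the SPAC977. sum, which is mostly SPAC977.14c, nor in the sums of SPAC212. and of SPAC869., the inner block of the same end.

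Other gene lists give context for these values. Of 32 genes for telomere proteins, heterochromatin and RNA interference factors, all were tested and none was at least 2-fold apart from WT in any mutant. Over all genes that share was only 0.414 to 6.89%, so 0 of 32 is no result about this list. Those called at any size were 50% in msi2-G252E (58.8% of all genes), 18.75% in pfs2-E104A (34.23%), 46.88% in pfs2-V180F (48.08%) and 21.88% in pta1-T524M (38.43%). They were 12.5% in ysh1-L74F (14.41%), 65.62% in pla1-Y86L (64.63%) and 40.62% in cft1-L249Q (43.31%). The 2 largest called changes among these 32 genes were 0.56 for poz1, a telomere protein gene, in msi2-G252E, and -0.43 for clr2, a gene of the histone deacetylase complex SHREC, in the same mutant. In pfs2-V180F the largest were 0.41 for stc1, an RNA interference factor gene, and -0.39 for clr2, and in pla1-Y86L they were -0.42 for the telomere protein gene rif1 and -0.42 for swi6, all as log2 fold changes. Of 80 protein-coding neighbours inward of the clusters, 79 were tested. Those called at least 2-fold higher and lower numbered 8 and 3 in msi2-G252E, 0 and 1 in pfs2-E104A, 7 and 0 in pfs2-V180F, 1 and 2 in pta1-T524M, 0 and 0 in ysh1-L74F, 5 and 8 in pla1-Y86L and 1 and 0 in cft1-L249Q. In pfs2-V180F that was 8.86% of them, beside 3.36% of all genes, and in pla1-Y86L 16.5% beside 6.89%. The share was also above that of all genes in msi2-G252E, at 13.92% beside 6.01%, and in pta1-T524M, at 3.797% beside 2.18%. It was below that of all genes in pfs2-E104A (1.266% beside 1.45%), cft1-L249Q (1.266% beside 2.56%) and ysh1-L74F (0% beside 0.414%). At the ends of chromosome II, 29 of 57 genes were tested. The numbers that rose and fell were 9 and 5 in msi2-G252E, 9 and 3 in pfs2-E104A, 11 and 2 in pfs2-V180F, 13 and 2 in pta1-T524M, 10 and 0 in ysh1-L74F, 4 and 13 in pla1-Y86L and 17 and 0 in cft1-L249Q. Beside them, 24.1% of all genes rose and 24% fell in pfs2-V180F, 32.2% and 32.4% in pla1-Y86L and 22.3% and 21.0% in cft1-L249Q. The same shares were 29.3% and 29.5% in msi2-G252E, 18.1% and 16.1% in pfs2-E104A, 18.7% and 19.8% in pta1-T524M and 7.57% and 6.84% in ysh1-L74F. No difference between these lists and the members was tested. The helicase gene tlh2 of chromosome II, a near-copy of tlh1, rose with a log2 fold change of 4.50 ± 0.52 (SE, edgeR adjusted p = 1.30e-07) in msi2-G252E and one of 3.84 ± 0.55 (SE, edgeR adjusted p = 7.06e-06) in cft1-L249Q, and reads could be split between the copies.

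In the authors' deposited tables, which compare each mutant with WT by DESeq2, members were called in similar numbers. These numbers are out of 41 to 56 members with an adjusted p per mutant, against the 35 tested with edgeR. Shares over all genes in those tables are not given here, so the numbers are no result about the members. At an adjusted p under 0.05 the authors' deposited table for pfs2-V180F had 4 members higher and 15 lower, that for pla1-Y86L 4 and 14, for msi2-G252E 6 and 10, and for pfs2-E104A 1 and 9. The authors' deposited table for pta1-T524M had 9 and 7, that for ysh1-L74F 2 and 8, and that for cft1-L249Q 6 and 9. Of the members called in both the authors' deposited table and the edgeR fit, 0 had opposite directions in any comparison. Both rest on the same libraries, so this compares methods and is not independent evidence.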

How the data were processed

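PolyA+ RNA-seq of 24 fission yeast libraries, 8 groups of 3, was read from a table of raw counts per gene that the authors deposited. HISAT2 2.1.0, SAMtools, HTSeq 0.10.0, DESeq2 and build ASM294v2 are named in the submitters' processing notes. How HTSeq treated strand, and which annotation it used, is not given in the sources used here. Per the file headers, the authors' comparison tables hold a mean signal (baseMean), log2 fold changes with SE, and p-values with adjusted p-values; the score-type DESeq2 test statistics that the authors also deposited were not used. RefSeq ASM294v3 matched 6836 of 6988 identifiers and all 58 members, and served for names, order, exon lengths and repeated 50-base stretches only, so no coordinates or sequences are given.

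Counts were analysed with edgeR 4.0.16 in R 4.3.3: filterByExpr, TMM, a quasi-likelihood fit over the 24 libraries with 1 mean per group, leaving 16 residual degrees of freedom, and Benjamini-Hochberg adjustment over 6287 genes. CPM values use TMM-scaled library sizes, and log2 CPM a prior count of 0.5. Where a group held 1 to 3 reads, the ratio of reads is given with an exact 95% Poisson interval. That interval pools the reads of each group and covers counting error only, not the spread between replicates. Alternatives were DESeq2 1.42.0, RLE scaling, no filter, robust shrinkage, the 2 groups compared alone, a replicate block, and leaving out each library. On simulated data of 6264 genes with 200 changed per mutant, the test recovered 86.6 to 95.5% of genes changed 1.5-fold and 94.0 to 98.5% of those changed 2-fold over the 7 comparisons with WT. Every simulated gene had the common biological coefficient of variation of 4.90%, whereas the tested members had a median of 17.2%. These rates therefore check the test and do not give its power for the members.

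Values in every library are given for tlh1, ftm4, pdc102, gdt1 and mel1, for members called and at least 2-fold apart in a mutant, for the 5 with the widest range in WT (at least 20 reads) and for the 5 with the highest mean; put4, fex1, SPAC977.15 and other members are named beside them by choice. Of the other lists, genes among the 4 largest called changes per mutant are named. The name rule reads no values, but members and lists were chosen with earlier results of these data known.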

Additional observations from a re-analysis of the deposited data

How the results depend on the processing

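Of 100 called differences of the members named, 99 stayed called with DESeq2, 100 with RLE scaling, 100 without the filter, 98 with robust shrinkage and 82 of 89 when only the 2 groups compared were fitted; 70 stayed called whichever library was left out, and 0 changed direction under any of these. Replicate numbers are not stated to mark a shared day, and deviations of same-numbered libraries correlated at -0.11 to 0.23, with 14 of 24 libraries closest to their own number; with the number as a replicate block all 100 calls stayed. The count of members called in pfs2-E104A, 9 with all libraries, ran from 4 to 8 when 1 library was left out, the lowest without pfs2-E104A replicate 2, with 5 without WT replicate 1. In ysh1-L74F it was 9, and 5 with only the 2 groups compared, where fewer samples enter the fit; with 1 library left out it ran from 5 to 9, the lowest without WT replicate 3, ysh1-L74F replicate 1 or replicate 2. The median SD of tested members between WT replicates, 0.464, was 0.354 with a prior count of 5, and 0.266 without WT replicate 1, 0.261 without WT replicate 2 and 0.508 without WT replicate 3. Depth limits the members with fewer than about 20 reads per group, where a call can rest on 1 library.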

Other observations

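Some members too low to be tested also differed in their reads between groups, given here as reads in replicates 1, 2 and 3 with no test. SPAC212.07c, an annotated pseudogene of unique sequence near the left end, had 4, 2 and 2 reads in WT, 7, 8 and 7 in pta1-T524M and 8, 6 and 8 in cft1-L249Q. It had 7, 6 and 4 reads in msi2-G252E and 0 to 6 per library in the other mutants. SPAC186.07c, a hydroxyacid dehydrogenase gene inside the right end run, had 3, 2 and 9 reads in WT, 0, 0 and 1 in pfs2-V180F and 0, 8 and 11 in cft1-L249Q, so that cft1-L249Q replicate 1 was the one at 0 there as well. In pfs2-E104A it had 0, 0 and 2. SPAC977.04, of unknown function, had 6, 4 and 9 reads in WT and 2, 2 and 1 in pfs2-V180F. The gene hry1, for a cation-binding domain protein of the SPAC869. block, had 0, 1 and 0 reads in WT and 5, 3 and 3 in pfs2-V180F. It also had 2, 3 and 2 reads in msi2-G252E, 7, 0 and 2 in pta1-T524M and 5, 1 and 3 in cft1-L249Q, with 0 or 1 per library in the other mutants.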
